A study of Sus scrofa with 8 samples.

Results

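Integrin genes were followed in the whole blood of 8 sows (Sus scrofa), 4 pregnant and 4 non-pregnant. Integrin members were all non-control probes whose RefSeq transcript carries a pig symbol of ITGA or ITGB with a digit, or ITGAL, ITGAM, ITGAV or ITGAX. This gave 21 of the 43603 probes of the array and 9 of its 2389 named genes. They belong to 8 integrin chains (20 probes) and to ITGB1BP2, a protein that binds an integrin and is no chain itself. The chains are ITGAL, ITGB2, ITGA2B, ITGB3, ITGB1, ITGAV, ITGB6 and ITGB8. Of the 26 symbols of this form in the name table, 17 matched no probe through a RefSeq accession, among them ITGAM, ITGAX, ITGA4, ITGB7 and ITGA2, and these were not analysed here.

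The pregnant and the non-pregnant sows were all of the fifth parity and were bled 14 days after insemination. Each sow was measured on 1 single-colour array. The design text names 3 half-sib pairs and 1 unrelated pair, without saying which sows they are. The comparison asks which genes differ in maternal blood around the time when pig conceptuses attach to the uterus. Whole blood mixes leukocytes, platelets and red cells, so fewer cells of a type and less RNA per cell cannot be told apart.

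Integrins are receptors that tie cells to each other and to the matrix around them, and each is a pair of an alpha and a beta chain. Their roles are known mainly from human and mouse cells. ITGAL (CD11a) and ITGB2 (CD18) form LFA-1, which lets leukocytes bind ICAM proteins on other cells. ITGA2B (CD41) and ITGB3 (CD61) form the fibrinogen receptor through which platelets aggregate. ITGB1 pairs with many alpha chains on most cells, platelets included, and ITGAV pairs with ITGB1, ITGB3, ITGB6 or ITGB8 to bind matrix proteins and the latent form of TGF-beta.

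The share of probes well above background ran from 61.7% to 68.1% in pregnant and from 62.7% to 69.2% in non-pregnant sows, and 0 probes were saturated. Signals are given below as log2 of the processed signal minus the array's 75th percentile, so that 0 is the 75th percentile of that array. That percentile ran from 142 to 296 in pregnant and from 175 to 249 in non-pregnant sows. The array of pregnant replicate 2 differed from the rest. Its 75th percentile was the lowest, at 142. The lowest correlation between arrays was 0.870 with it and 0.946 without it. Brightness depends on the probe, so values of different probes are not ranked against each other, and the probes of a gene are numbered from the brightest. Of the 21 probes, 17 were tested, namely those with a usable spot on every array that exceeded background on all 4 arrays of a group.

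**Figure D1:**
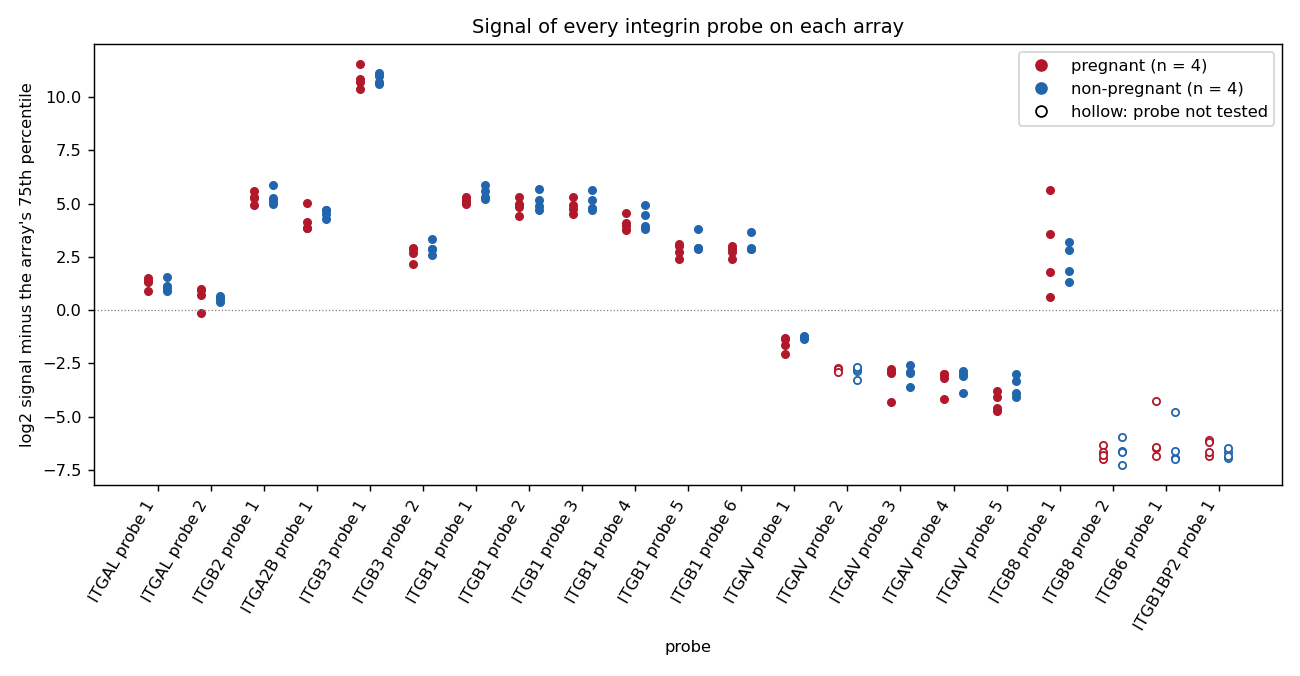
Scaled log2 signal (vertical axis) of each of the 21 integrin probes (horizontal axis), 1 point per array, pregnant left of non-pregnant. Hollow points are the 4 probes that were not tested. Groups overlap at every probe, and the widest spread is that of ITGB8 probe 1, between 0.62 and 5.64.

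The leukocyte chains were detected in every sow. ITGB2 (probe A_72_P146616) stood at 5.60, 4.92, 5.33 and 5.26 in pregnant replicates 1 to 4, against 5.26, 5.14, 5.005 and 5.89 in non-pregnant replicates 1 to 4. Its lowest value was that of pregnant replicate 2 and its highest that of non-pregnant replicate 4, and the groups overlapped. It averaged 5.28 ± 0.28 in pregnant and 5.32 ± 0.39 in non-pregnant sows (SD, n = 4 each), a log2 fold change, pregnant over non-pregnant, of -0.04 (95% interval -0.66 to 0.57, limma adjusted p = 1.00). ITGAL probe 1 (A_72_P077381) stood at 1.53, 0.88, 1.35 and 1.35 in pregnant replicates 1 to 4. In non-pregnant replicates 1 to 4 it stood at 1.15, 1.06, 0.88 and 1.56. Its range over the 8 sows was 1.59-fold, and 4.75% of all tested probes had a smaller one. The range was 2.19-fold for ITGAL probe 2 (36.6% of probes with a smaller one) and 1.95-fold for ITGB2 (23.3%). The log2 fold change was 0.11 (95% interval -0.46 to 0.69), and that of ITGAL probe 2 was 0.10 (-0.55 to 0.75). Within slide 1 the log2 fold changes were 0.34 for ITGB2 and 0.42 and 0.40 for the ITGAL probes, and within slide 2 they were -0.42, -0.19 and -0.20, so that the slides differed in sign for all 3 probes.

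The partners of LFA-1 went up and down together from sow to sow. Across the 8 sows, ITGAL probe 1 and ITGB2 correlated at r = 0.924 (exact permutation p = 0.000273, adjusted over 7 relations 0.00191), with a Spearman rho of 0.976 (exact permutation p = 0.000397, adjusted 0.00278). Pregnant replicate 2 and non-pregnant replicate 3 were low in both chains, and pregnant replicate 1 and non-pregnant replicate 4 were high in both. Without the 2 sows farthest from the median of ITGAL, r was 0.874. With an array left out it was between 0.900 and 0.955. It was 0.970 for deviations from each group's mean and 0.925 for deviations from each slide's mean; a slide alone holds 4 arrays, too few for a value of its own. Among the 1816 other named genes, ITGAL was number 15 in correlation with ITGB2, and ITGB2 was number 7 in correlation with ITGAL. ITGAL probe 2 followed ITGB2 less closely (r = 0.628, exact permutation p = 0.0985, rho = 0.81, exact permutation p = 0.0218, adjusted over 34 added relations 0.146 and 0.0494; r = 0.317 without the 2 farthest sows). With the ITGAL probes averaged, r with ITGB2 was 0.795 and the call was lost (adjusted exact permutation p = 0.126). The 5 genes most like ITGB2 over the 8 arrays were STARD3 (r = 0.990), MTX1 (0.973), CSNK2B (0.969), TBRG4 (0.959) and ACSS2 (0.957), as a description of points that share their arrays and scaling.

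The platelet chains were detected in every sow, and their probes did not move as 1 unit. ITGA2B (A_72_P303309) stood at 3.85, 5.03, 4.14 and 3.87 in pregnant replicates 1 to 4, against 4.69, 4.68, 4.29 and 4.50 in non-pregnant replicates 1 to 4. The highest sow was pregnant replicate 2, while the other 3 pregnant sows were below all non-pregnant sows. The log2 fold change was -0.32 (95% interval -1.003 to 0.37, limma adjusted p = 1.00). Leaving out pregnant replicate 2 gave -0.59. It was -0.50 within slide 1 and -0.14 within slide 2.

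ITGB3 had 2 probes of very different brightness, whose order of sows differed. Probe 1 (A_72_P762355) stood at 10.37, 11.56, 10.88 and 10.73 in pregnant replicates 1 to 4, against 10.69, 10.60, 10.98 and 11.13 in non-pregnant replicates 1 to 4. Probe 2 (A_72_P223672) stood at 2.88, 2.19, 2.69 and 2.91 in pregnant replicates 1 to 4, against 2.86, 2.88, 3.35 and 2.59 in non-pregnant replicates 1 to 4. Pregnant replicate 2 was the highest of the 8 arrays at probe 1 and the lowest at probe 2. The log2 fold changes were 0.03 (95% interval -0.63 to 0.70) for probe 1 and -0.25 (-0.86 to 0.35) for probe 2. They were -0.21 and -0.32 within slide 1, and 0.27 and -0.19 within slide 2. Between the probes r was -0.602 (exact permutation p = 0.113, rho = -0.500, exact permutation p = 0.216, adjusted over 34 relations 0.147 and 0.283), and without the 2 farthest sows it was -0.098.

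The processed signal of ITGB3 probe 1 hardly differed between arrays before scaling. It ran from 378205 to 434945, a 1.15-fold range, and reached 68.4% of the lowest saturation value in the file headers. The signal of ITGB3 probe 2 ran from 647 to 2181 (3.37-fold) and that of ITGA2B from 3258 to 6405 (1.97-fold). The 75th percentiles of the arrays differed by 2.08-fold. The scaled values of ITGB3 probe 1 therefore followed the 75th percentile that was subtracted from them, with r = -0.977 to its log2 over the 8 arrays. That r is given without a test, since the percentile is part of both measures. For the other 16 tested probes this r was between -0.688 and 0.868. Whether ITGB3 probe 1 measures ITGB3 alone was not tested.

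ITGA2B and ITGB3, the partners of the platelet fibrinogen receptor, gave r = 0.625 at ITGB3 probe 1 (exact permutation p = 0.0933, rho = 0.429, exact permutation p = 0.299, adjusted over 7 relations 0.237 and 0.524). That relation rested on the 2 farthest sows, pregnant replicates 1 and 2, without which r was -0.148, and on the signals before scaling it was -0.160. At ITGB3 probe 2 r was -0.518 (exact permutation p = 0.184, rho = -0.595, exact permutation p = 0.132, adjusted over 34 relations 0.216 and 0.187; -0.122 without the same 2 sows). With quantile normalization the r of ITGA2B with ITGB3 probe 1 was -0.719, opposite in sign, and with normexp background correction it was 0.941 and passed the threshold (adjusted exact permutation p = 0.000694). The 5 genes most like ITGA2B were ATP5E (r = 0.952), SELENOM (0.932), EDN3 (0.921), MYRIP (0.898) and SPDEF (0.892). All 5 were highest on pregnant replicate 2, as ITGA2B was.

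**Figure D2:**
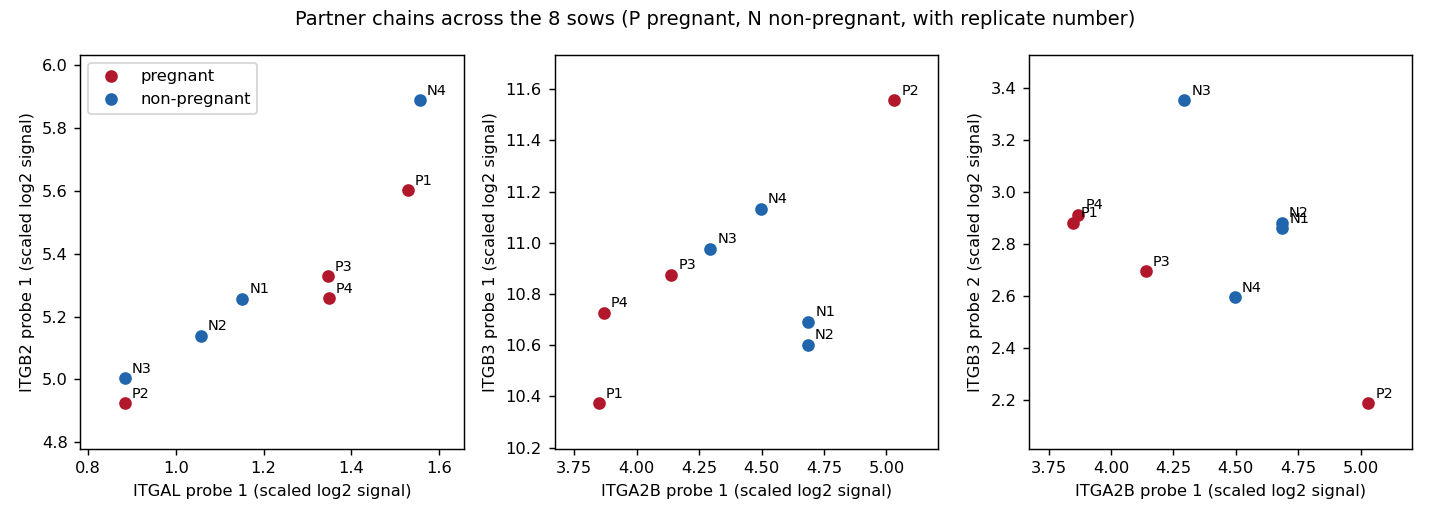
Scaled log2 signals of partner chains in the 8 sows, 1 point per sow, labelled P (pregnant) or N (non-pregnant) with the replicate number. ITGAL and ITGB2 rise together (r = 0.924, left), while ITGA2B runs with ITGB3 probe 1 (r = 0.625, middle) and against ITGB3 probe 2 (r = -0.518, right), both mainly through P2.

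ITGB1, the shared beta chain, was detected by all 6 of its probes in every sow. At probe 1 (A_72_P195557) it stood at 5.31, 4.98, 5.19 and 5.09 in pregnant replicates 1 to 4, against 5.89, 5.24, 5.32 and 5.61 in non-pregnant replicates 1 to 4. Non-pregnant replicate 1 was the highest and pregnant replicate 2 the lowest, and the groups overlapped only through pregnant replicate 1. It averaged 5.14 ± 0.14 in pregnant and 5.52 ± 0.30 in non-pregnant sows (SD, n = 4 each), a log2 fold change of -0.37 (95% interval -0.91 to 0.17, limma adjusted p = 1.00). The other 5 probes had log2 fold changes between -0.32 and -0.20, and all 6 changed sign with normexp background correction (0.41 to 0.64), where the median of all probes lay at -0.20. Leaving out non-pregnant replicate 1 gave -0.25 for probe 1 and between -0.12 and 0.0201 for the other 5 probes. Within slide 1 the 6 values were between -0.49 and -0.35 and within slide 2 between -0.39 and 0.03. All 6 probes were highest in non-pregnant replicate 1 and lowest in pregnant replicate 2. Of the 15 pairs of ITGB1 probes, 12 correlated with an adjusted exact permutation p under 0.05 (Pearson r, adjusted over 34 relations), with a median r of 0.887 and a range from 0.460 to 0.995. The 3 pairs that did not pass were those of probe 1 with probes 2, 3 and 4.

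Platelet markers were highest in the same sow as ITGB1. The mean scaled log2 signal of the 6 measured markers (PPBP, GP9, GP1BB, SELP, TUBB1 and P2RY12, of 15 listed) was 2.26 in non-pregnant replicate 1. In the other 7 sows it was between 1.04 and 1.60. Probes 2 to 6 of ITGB1 correlated with this mean at r between 0.846 and 0.896 (adjusted exact permutation p between 0.0104 and 0.0179 over 34 relations), and probe 1 at 0.638 (adjusted exact permutation p = 0.147). Spearman's rho was 0.881, 0.881, 0.881, 0.929 and 0.690 for probes 2 to 6 (adjusted exact permutation p = 0.0224, 0.0224, 0.0224, 0.0108 and 0.118) and 0.238 for probe 1 (0.600). The relation leaned on few sows. Without non-pregnant replicate 1, r was between 0.523 and 0.746 for probes 2 to 6 and -0.266 for probe 1. Without pregnant replicate 2 as well it was between 0.767 and 0.958 for probes 2 to 6. Without pregnant replicate 4 and non-pregnant replicate 1, the sows with the highest platelet means, it was between 0.264 and 0.396 for the same probes. By the rule of leaving out the 2 sows farthest from the median of each probe, which are not the same sows for all probes, r was -0.175 for probe 1 and 0.805, 0.396, 0.377, 0.958 and 0.912 for probes 2 to 6. These relations were chosen after the values had been seen. For the platelet chains, r with the platelet markers was 0.108 for ITGA2B (exact permutation p = 0.814, rho = -0.071, exact permutation p = 0.882) and -0.302 for ITGB3 probe 1 (0.420, rho = -0.643, 0.0962), with adjusted exact permutation p of 0.950 and 0.588 for r and 0.935 and 0.337 for rho. Without the 2 farthest sows r was 0.266 for ITGA2B and -0.480 for ITGB3 probe 1, and on the signals before scaling it was 0.315 and -0.658. ITGB3 probe 2 gave r = 0.187 (exact permutation p = 0.535, rho = 0.524, exact permutation p = 0.197, adjusted over 34 relations 0.557 and 0.267), and 0.471 without the 2 farthest sows. With normexp background correction, ITGA2B gave r = 0.720 with the platelet markers and passed the threshold (adjusted exact permutation p = 0.0496). ITGB3 probe 1 then gave 0.585 (adjusted exact permutation p = 0.139). The difference between ITGB1 and the platelet chains in these correlations was not tested.

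The genes most like ITGB1 probe 1 were AZIN1 (r = 0.949), TPM1 (0.926), DPM1 (0.925), PECAM1 (0.916) and KATNBL1 (0.916). Without the 2 sows farthest from the median of ITGB1 these r were 0.657, 0.634, 0.303, 0.839 and 0.885. PECAM1 encodes an adhesion molecule of platelets, leukocytes and endothelium. Its values were 2.21, 1.43, 1.85 and 1.63 in pregnant replicates 1 to 4, against 2.58, 1.64, 1.92 and 2.13 in non-pregnant replicates 1 to 4, again highest in non-pregnant replicate 1.

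**Figure D3:**
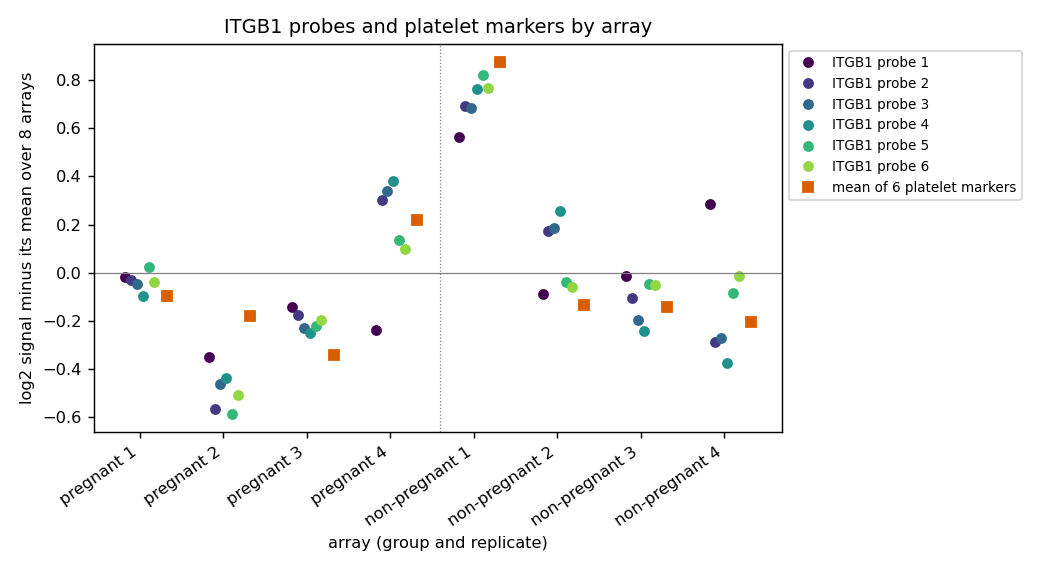
Scaled log2 signal minus its mean over the 8 arrays (vertical axis) for the 6 ITGB1 probes (circles) and the mean of the 6 measured platelet markers (squares), by array, pregnant left of non-pregnant. Non-pregnant replicate 1 is the highest array for each of the 7 measures, and ITGB1 probe 1 differs from probes 2 to 4 on pregnant replicate 4 and non-pregnant replicate 4.

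ITGAV, the alpha chain of the vitronectin receptor, was dim, and its 4 tested probes did not all run together. Probe 1 (A_72_P165441) stood at -1.37, -2.06, -1.63 and -1.30 in pregnant replicates 1 to 4, against -1.23, -1.37, -1.25 and -1.25 in non-pregnant replicates 1 to 4. Pregnant replicate 2 was lowest, and the non-pregnant sows lay between -1.37 and -1.23. The log2 fold change was -0.32 (95% interval -0.86 to 0.23, limma adjusted p = 1.00). It was -0.26 within slide 1, -0.37 within slide 2 and -0.16 without pregnant replicate 2.

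Probe 5 of ITGAV (A_72_P471875) was the integrin probe of smallest unadjusted p. It stood at -4.75, -3.81, -4.10 and -4.59 in pregnant replicates 1 to 4, with pregnant replicates 1 and 4 not well above background. In non-pregnant replicates 1 to 4 it stood at -3.01, -3.87, -4.06 and -3.34, well above background in all 4. Its log2 fold change was -0.74 (95% interval -1.47 to -0.02, limma unadjusted p = 0.0462, adjusted p = 1.00), with the groups overlapping, and was -0.89 within slide 1 and -0.59 within slide 2. The probe entered the test only through the non-pregnant group, where it was higher, so its unadjusted p and interval are no support for a group difference. Probes 3 and 4 had log2 fold changes of -0.22 and -0.13, and without pregnant replicate 2, which was not well above background at either, 0.15 and 0.14. Probes 3 and 4 correlated with each other at r = 0.955 and with probe 1 at 0.733 and 0.645. The r of probe 5 with the other 3 tested probes lay between -0.328 and 0.083. Without pregnant replicate 2, r was -0.099 for probes 1 and 3, -0.049 for probes 1 and 4 and 0.917 for probes 3 and 4. Probe 5 then had r of 0.360, -0.479 and -0.313 with probes 1, 3 and 4. Without the 2 farthest sows, the pairs among probes 1, 3 and 4 had r of -0.200, -0.220 and 0.350 in the same order. Those of probe 5 were 0.650, -0.218 and 0.442. Of the 6 pairs, that of probes 3 and 4 passed (adjusted exact permutation p = 0.0104 over 34 relations). Probe 2 was not tested because its spot on pregnant replicate 4 was marked as an outlier. On the other arrays it stood at -2.73, -2.77 and -2.90 in pregnant replicates 1 to 3, against -2.86, -2.76, -2.66 and -3.26 in non-pregnant replicates 1 to 4.

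With ITGB3 probe 1, ITGAV had r = -0.645 (exact permutation p = 0.101, rho = -0.143, exact permutation p = 0.752, adjusted 0.237 and 0.935), which was 0.746 without the 2 farthest sows and -0.551 on the signals before scaling. With ITGB1 it had r = 0.637 (exact permutation p = 0.105, rho = 0.833, exact permutation p = 0.0154, adjusted 0.147 and 0.0373 over 34 relations; r = 0.635 without the 2 farthest sows). With ITGB8 it had r = -0.843 (exact permutation p = 0.0143, rho = -0.667, exact permutation p = 0.0831, adjusted 0.0257 and 0.135), which rested on pregnant replicates 2 and 3, since without them r was -0.0094.

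ITGB8, a chain known from epithelium, glia and some immune cells, gave the widest spread of all integrin probes. At probe 1 (A_72_P131836) it stood at 0.62, 5.64, 3.57 and 1.77 in pregnant replicates 1 to 4, against 1.34, 3.22, 2.85 and 1.84 in non-pregnant replicates 1 to 4. The lowest and the highest of the 8 sows were both pregnant, 32.4-fold apart, and 98.5% of all tested probes had a smaller range. It averaged 2.90 ± 2.19 in pregnant and 2.31 ± 0.87 in non-pregnant sows (SD, n = 4 each). The log2 fold change of 0.59 (95% interval -1.51 to 2.70, limma adjusted p = 1.00) was -0.32 without pregnant replicate 2, 0.0056 within slide 1 and 1.18 within slide 2. ITGB8 probe 2 (A_72_P177516) was not well above background on any of the 8 arrays, so the spread was seen by 1 probe only. The genes most like ITGB8 probe 1 were BPIFB2 (r = 0.993), F10 (0.993), SPARCL1 (0.992), GPX3 (0.990) and NECTIN1 (0.988), and without the 2 sows farthest from the median these r were between 0.961 and 0.985. F10, the coagulation factor X gene, stood at -2.64, 1.97, -0.32 and -1.93 in pregnant replicates 1 to 4, against -2.29, -0.51, -0.91 and -1.49 in non-pregnant replicates 1 to 4. ITGB8 and ITGB1 were added to the genes whose patterns were matched after the values had been seen.

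**Figure D4:**
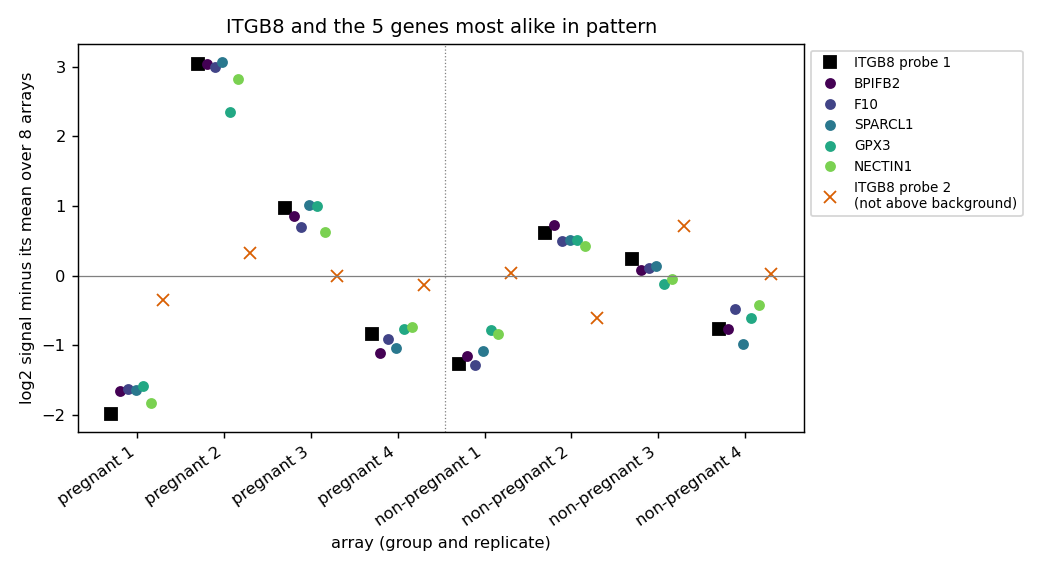
Scaled log2 signal minus its mean over the 8 arrays (vertical axis) for ITGB8 probe 1 (squares), the 5 named genes most alike in pattern (circles) and ITGB8 probe 2 (crosses), by array, pregnant left of non-pregnant. Probe 1 and the 5 genes are highest on pregnant replicate 2 and lowest on pregnant replicate 1, while probe 2 was not well above background on any array.

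ITGB6, a chain of epithelium that pairs with ITGAV, was well above background on 1 of 8 arrays, non-pregnant replicate 2, where it stood at -4.78. On pregnant replicate 2 it stood at -4.25 without being well above background, and on the other 6 arrays it was between -7.00 and -6.43. ITGB1BP2, known as melusin in muscle, was not well above background on any array, with values between -6.85 and -6.10 in pregnant and between -6.96 and -6.45 in non-pregnant sows. No fold change is given for either.

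No integrin probe passed the test between pregnant and non-pregnant sows. Of the 17 tested, 0 passed (limma, Benjamini-Hochberg over all 26481 tested probes, where the share called was 0%). At an unadjusted p under 0.05 there was 1, ITGAV probe 5, against 2.3% of all tested probes, and groups did not overlap at 0 of the 17, against 1.57% of all tested probes. That probe had entered the test only through the non-pregnant group. The log2 fold change was negative at 13 probes and positive at 4, with a median of -0.22, beside 56.1% negative and a median of -0.04 over all tested probes. ITGAV probes 3, 4 and 5 entered only through the non-pregnant group, which favours a negative sign. Among the 14 probes well above background on all 8 arrays, 10 were negative and 4 positive. With normexp background correction the tally of the 17 probes turned over, to 4 negative (all of ITGAV) and 13 positive with a median of 0.46, beside 59.5% negative over all tested probes. The 13 probes that were negative before this correction include 6 of ITGB1 and 4 of ITGAV, and probes of 1 gene are no separate evidence. Pregnant replicate 2 was the lowest array at 13 of the 17 probes, against 38.0% of all tested probes, and the highest at 3, against 21.7%. The probes lowest there include 6 of ITGB1 and probes 1, 3 and 4 of ITGAV, again no separate evidence. ITGAV probes 3 and 4 were not well above background on that array. Without pregnant replicate 2, 12 of the 17 log2 fold changes were negative. The median 95% interval of an integrin probe reached 0.66 to either side on the log2 scale.

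The chosen probes of the leukocyte chains had log2 fold changes of 0.11 (ITGAL) and -0.04 (ITGB2), and those of the platelet chains -0.32 (ITGA2B) and 0.03 (ITGB3 probe 1), with -0.25 at ITGB3 probe 2. Each had an interval that held 0, and the difference between the chain groups was not tested. The value of ITGB3 probe 1 is limited, since its scaled signal followed the 75th percentile that was subtracted from it (r = -0.977).

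**Figure D5:**
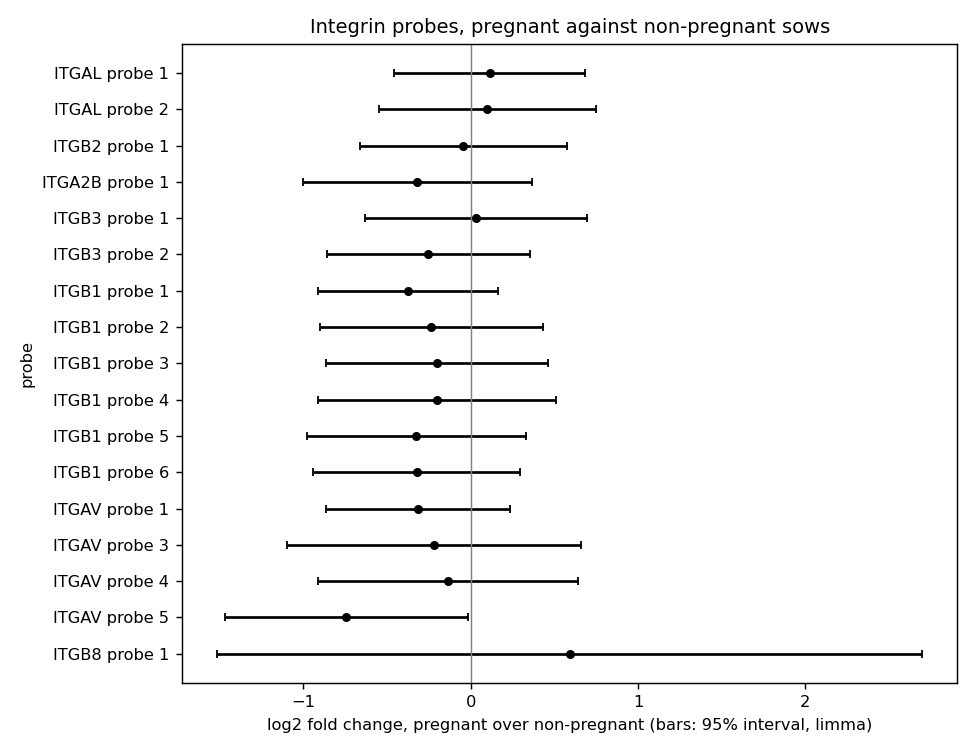
Log2 fold change of pregnant over non-pregnant sows (horizontal axis) for the 17 tested integrin probes, 1 line each, with the 95% interval from limma. Of the 17 intervals, only that of ITGAV probe 5 (-1.47 to -0.02) does not hold 0, before adjustment over all probes. That probe entered the test only through the non-pregnant group, where it was higher.

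Other genes of the integrin pathway were measured for 9 of 26 listed ligands, 1 of 27 activation and linkage genes and 7 of 25 signalling genes. None passed (limma, adjusted over all probes), and 0 had an unadjusted p under 0.05 or groups that did not overlap. Over all 1817 named genes 0 passed, 38 had an unadjusted limma p under 0.05 and 25 had groups that did not overlap. Of the ligands 7 had a positive and 2 a negative log2 fold change (median 0.15), while all 7 signalling genes were negative (median -0.10), beside 811 positive and 1006 negative over all 1817 named genes (median -0.03). Without pregnant replicate 2, 5 ligands were positive and 4 negative, and 4 signalling genes were positive and 3 negative. The ligands of smallest unadjusted p were the cadherin CDH1 (0.36, 95% interval -0.22 to 0.93), vitronectin VTN (0.66, -0.51 to 1.82), osteopontin SPP1 (0.51, -0.67 to 1.69) and the LFA-1 ligand ICAM1 (0.21, -0.49 to 0.92). Among the signalling genes, the cytokine TGFB1, whose latent form ITGAV integrins bind, had a log2 fold change of -0.22 (95% interval -0.77 to 0.33). CD47, a surface protein that associates with integrins, had -0.19 (-0.81 to 0.44), the GTPase CDC42 -0.11 (-0.64 to 0.43) and the adaptor CRK -0.10 (-0.65 to 0.45). Vinculin (VCL), which links integrins to actin, had -0.32 (-1.06 to 0.42).

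Some ligands had a spread like that of ITGB8, singled out after their values were seen. ICAM3, an LFA-1 ligand of leukocytes, stood at 4.88, 8.54, 6.40 and 3.85 in pregnant replicates 1 to 4, against 5.69, 6.77, 5.92 and 5.84 in non-pregnant replicates 1 to 4. The complement gene C3, a fragment of which binds ITGB2 integrins, stood at 1.42, 5.95, 3.44 and 1.495 in pregnant replicates 1 to 4, against 2.64, 3.83, 2.86 and 2.55 in non-pregnant replicates 1 to 4. MADCAM1, a ligand of ITGB7 integrins on vessels, stood at 3.94, 7.90, 5.57 and 4.77 in pregnant replicates 1 to 4, against 5.19, 6.30, 5.002 and 5.25 in non-pregnant replicates 1 to 4. In all 3, pregnant replicate 2 was the highest and the log2 fold change changed sign or size with it: it was -0.14 for ICAM3, 0.11 for C3 and 0.11 for MADCAM1, and without pregnant replicate 2 -1.01, -0.85 and -0.67.

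Markers of the cells that carry these chains are given as means of scaled log2 signal. A measured marker had a tested probe, which need not exceed background in every sow. The mean of the 8 measured T cell markers was 1.73 to 2.41 in pregnant and 2.24 to 2.55 in non-pregnant sows. ITGAL correlated with it at r = 0.567 (exact permutation p = 0.136, rho = 0.476, exact permutation p = 0.243, adjusted over 7 relations 0.238 and 0.524), and at 0.110 without the 2 farthest sows. With each group's mean removed, r was 0.898 (adjusted exact permutation p = 0.0122 within groups). The mean of the 8 measured neutrophil markers was 0.79 to 1.91 in pregnant and 0.58 to 1.55 in non-pregnant sows. For ITGB2 the correlation with it was near 0 (r = 4.47e-05, exact permutation p = 1.00, rho = -0.048, exact permutation p = 0.935, adjusted 1.00 and 0.935; r = -0.606 without the 2 farthest sows). The means of the other lists were 1.04 to 1.60 in pregnant and 1.18 to 2.26 in non-pregnant sows for platelets (6 markers), 1.76 to 2.17 and 1.29 to 1.84 for monocytes (8) and 1.12 to 1.75 and 1.54 to 2.17 for cytotoxic and NK cells (7). For B cells (3 markers) they were 0.98 to 1.41 in pregnant and 1.05 to 1.76 in non-pregnant sows. The 1 measured red cell gene, KLF1, ran from -3.02 to -0.85 in pregnant and from -2.75 to -1.43 in non-pregnant sows. The part of cell makeup in the integrin values was not tested.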

How the data were processed

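The authors deposited 1 Agilent Feature Extraction file per array, and per the file headers its processed signal is a linear spot intensity, background-subtracted and spatially detrended by version 10.7.3.1 (10.7 in the submitters' processing notes). Log2 values that the authors deposited as a table share a median of 5.03 in every column and correlate with log2 of their own array's signal (r of 0.99895 or higher), so they run the same way. Their scale, centring and software stay unknown, and they were used only as an alternative.

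Control spots and outlier spots were removed, which cost 215 probes a complete set of values. Log2 signals of a probe's spots were averaged and each array's 75th percentile was subtracted. A probe was tested if it exceeded background on all 4 arrays of a group (26481 probes). Names came from the Sscrofa11.1 RefSeq table, which named 5461 of the 5779 probes that carry such an accession. A gene's chosen probe is its brightest tested one. Values by array are given for leukocyte and platelet chains, ITGB1 and members at unadjusted p under 0.05, up to 4 genes of smallest p are named per pathway list, and 5 genes by likeness of pattern. ITGAV probes 1 and 2, ITGB8, F10, PECAM1, ICAM3, C3 and MADCAM1 were given by array after their values were seen.

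The group comparison used eBayes on lmFit fits (limma 3.58.1, R 4.3.3, two-sided), adjusted by Benjamini-Hochberg at 0.05. Relations over the 8 sows used two-sided exact permutation tests (numpy 2.4.6, scipy 1.17.1, pandas 2.3.3, Python 3.11.15). Of 18 relations planned, 7 had both measures, and 34 were added later. Each p measures the spread between these sows and arrays, whose number limits the precision. Tested on simulated data for 26481 probes, limma recovered 7.46% of 2-fold, 58.2% of 4-fold and 83.3% of 8-fold changes. The simulated noise was normal and drawn independently for each probe and array, from each probe's own SD. It held no pattern shared by the probes of an array, such as that of pregnant replicate 2. Recovery with such a pattern was not tested. The 2 slides, each with 2 arrays of each group, were checked as batches. Alternatives were other scalings, background corrections, filters, blocks, weights, the deposited table and each array left out. The members, lists and tests were chosen with earlier results of these data known.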

Additional observations from a re-analysis of the deposited data

Results flagged for a closer look

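In groups of 4 arrays, a value was marked when its gap to the nearest other, over the group's range, exceeded Dixon's 95% critical value, which chance does in about 1 in 20 groups. Of 48 groups looked at, 7 were marked. In non-pregnant sows, ITGB1 probes 5 and 6 stood out in replicate 1, at 3.79 (the others 2.89 to 2.94) and 3.69 (2.86 to 2.91). The platelet marker mean stood out in the same sow, at 2.26 against 1.18 to 1.25. ITGAV probes 3 and 4 stood out in pregnant replicate 2, at -4.32 (the others -2.93 to -2.75) and -4.15 (-3.19 to -3.01), on an array where neither was well above background and whose 75th percentile was the lowest. ITGAV probe 1 stood out in non-pregnant replicate 2, at -1.37 against -1.25 to -1.23, a gap smaller than the spread of the pregnant group. The B cell marker mean stood out in pregnant replicate 1, at 1.41 against 0.98 to 1.03. What lies behind these values was not tested.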

How the results depend on the processing

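Under all 22 alternatives, 0 probes and 0 integrin probes passed (limma), and between 396 and 2039 probes had an unadjusted p under 0.05, against 610. Of the recomputed integrin log2 fold changes, 333 kept their sign and side of the threshold and 28 changed sign. Normexp gave 0.53 for ITGA2B, 0.48, 0.61, 0.64, 0.58, 0.42 and 0.41 for ITGB1 probes 1 to 6, 0.82 for ITGB2 and 0.41 for ITGB3 probe 2. Slide 2 alone gave -0.19 and -0.20 for the ITGAL probes and 0.0319 for ITGB1 probe 4, and slide 1 alone 0.33 for ITGB2 and -0.21 for ITGB3 probe 1. Array weights gave 0.0165 for ITGAV probe 3 and 0.0348 for ITGB2, and averaged probes -0.11 for ITGB3. With 1 array left out, the values ran from -0.0271 to 0.35 for ITGAL probe 2, -0.42 to 0.15 and -0.37 to 0.14 for ITGAV probes 3 and 4 and -0.36 to 0.0201 for ITGB1 probe 4. They ran from -0.15 to 0.14 for ITGB2, -0.19 to 0.20 for ITGB3 probe 1 and -0.32 to 1.35 for ITGB8. The sign changed without pregnant replicate 2 for ITGAV probes 3 and 4, ITGB2, ITGB3 probe 1 and ITGB8, without pregnant replicates 1 or 4 for ITGAL probe 2, without non-pregnant replicate 1 for ITGB1 probe 4 and ITGB3 probe 1, without non-pregnant replicate 2 for ITGB3 probe 1, and without non-pregnant replicate 4 for ITGB2.

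The 1 relation past the threshold became 5 with normexp, 0 with averaged probes and 2 with deviations from group means, and stayed 1 with each array left out. With normexp, ITGAL passed with ITGB2 (r = 0.970) and with T cell markers (0.916). ITGB3 passed with ITGA2B (0.941) and ITGAV (-0.892), and ITGA2B with platelet markers (0.720). Their adjusted exact permutation p lay between 0.000694 and 0.0496. The r of ITGA2B with ITGB3 was -0.719 by quantile normalization and -0.778 in the deposited table. That of ITGAV with ITGB3 was 0.185 and 0.136 in the same settings and 0.0539 with averaged probes, and ran from -0.783 to 0.139 with 1 array left out. With platelet markers, ITGA2B gave -0.00398 for deviations from group means (-0.412 to 0.293 with 1 array left out) and ITGB3 gave 0.585 with normexp. ITGB2 with neutrophil markers gave -0.0252 with averaged probes and -0.00608 for deviations from slide means (-0.457 to 0.548 with 1 array left out). The causes were not tested.

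Deviations from the group means of sows of the same replicate number correlated at r = 0.218, 0.481, 0.434 and -0.117, and those of different numbers at a median r of -0.177 (-0.426 to 0.398). Deviations within a group sum to 0 at each probe, so a positive r at the same number pulls the others down. The different numbers are therefore no independent baseline. Of 4 pregnant sows, 2 correlated best with the non-pregnant sow of their own number. The labels tie no number to a half-sib pair, so the numbers were not taken as pairs, and whether they mark the pairs stays unknown. With the replicate block, 0 probes and 0 integrin probes passed, and 798 had an unadjusted p under 0.05. ITGAV probes 3 and 4 were not well above background on 1 array and probe 5 on 2, which limits their values.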
